A study of Homo sapiens with 6 samples.

Results

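The genes described here belong to the p53 pathway: the direct negative regulators of p53 and the genes that p53 switches on for cell cycle arrest, cell death, DNA repair and metabolism. A set of 36 gene symbols was taken, and every probe set that the platform annotation pairs with exactly 1 of those symbols was used. This gave 93 probe sets for 33 genes, of 54675 probe sets and 19775 genes on the array. BTG2 and FDXR were not listed by the annotation used here, and the probe set of BBC3 is shared with other genes, so these 3 genes were not analysed here. Of the 33 genes, 32 averaged 4 or more on the log2 scale and were tested, and PIDD1 fell under that filter.

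RNA came from tumours of U87-EV cells, a form of the human glioblastoma line U87; what EV stands for was not given in the sources used here. U87 is known to keep normal p53. Cells were injected with Matrigel under the skin of female BALB/c SCID mice aged 6 to 8 weeks, a strain without mature T and B cells that keeps its innate immune cells. The bevacizumab group received 10 mg/kg of the antibody into the peritoneum at 3-day intervals, the control group received saline, and dosing ran from a tumour volume of 150 to 200 mm3 until a diameter of about 15 to 30 mm. Each group began with 5 mice and is represented by 3 arrays. Bevacizumab blocks human VEGF-A and binds the mouse protein poorly, so VEGF from the host is largely outside its reach. The labels do not tie arrays to separate mice, so p-values measure the spread between arrays, which may be partly technical.

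In unstressed cells p53 is made continuously and destroyed quickly, because MDM2 tags it for the proteasome and MDM4 covers its activating domain. DNA damage, blocked replication and other stresses free p53 from both, and it then binds paired decamer sites near its targets. Many targets, including MDM2 itself, are raised within hours, so that their transcripts serve as a readout of p53 activity. In glioblastoma the pathway is often disabled by mutation of p53 or by extra copies of MDM2 or MDM4.

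The share of p53 pathway genes past the threshold was near that of all genes. Of the 32 members tested, 1 rose (CCNG2) and 4 fell (TIGAR, PPM1D, FAS and EI24), by limma with an adjusted p under 0.05 over all genes. That is 15.6% of the members, against 19.1% of the 10233 genes tested. In the rising direction it was 3.12% of members against 9.09% of all genes, and in the falling direction 12.5% against 9.97%. The median difference, bevacizumab minus control, was -0.07 on the log2 scale in the members and -0.01 over all genes tested, and 13 members had a difference above 0. The 95% interval of the difference lay between -1 and 1 on the log2 scale for 27 of the 32 members, and its upper end was under 1 for 31, all but CCNG2. The standard transcripts of active p53, CDKN1A, MDM2, BAX and GDF15, were among the 27 members that did not pass the threshold. In bulk tumour RNA, fewer cells that carry a transcript and less of it per cell cannot be told apart.

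**Figure D1:**
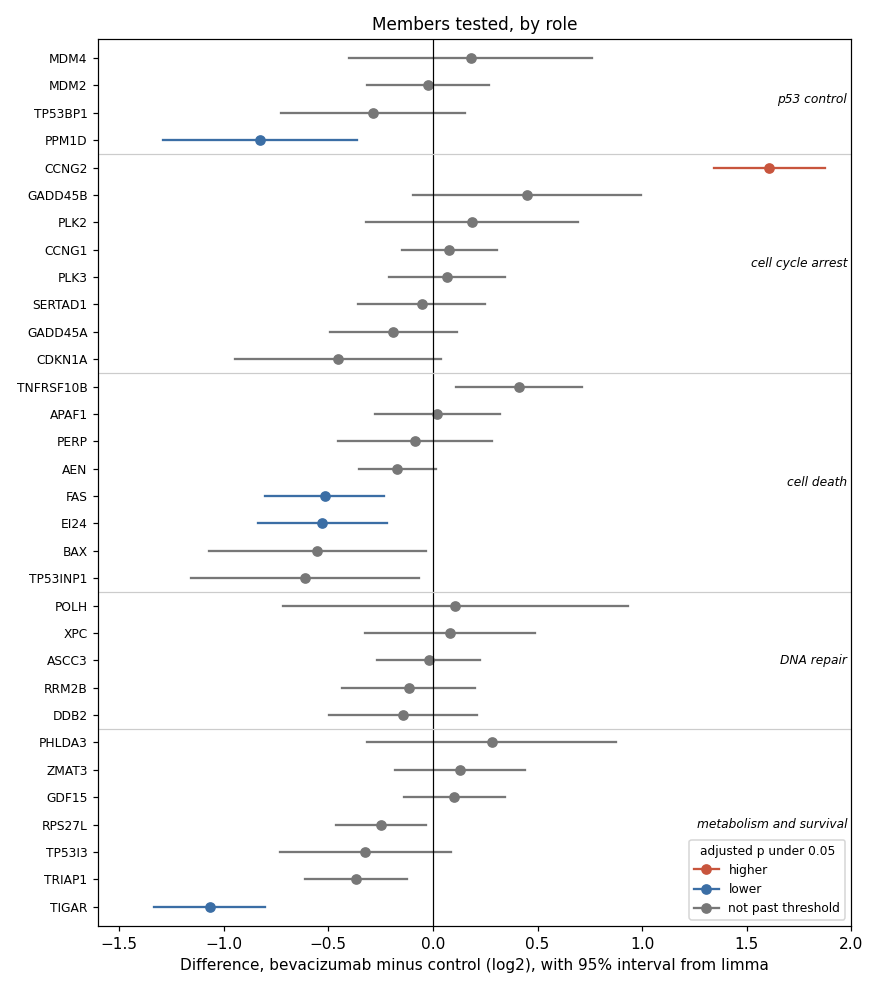
Difference between bevacizumab and control on the log2 scale (x axis) for each of the 32 tested members (y axis), grouped by role, with the 95% interval from limma (n = 3 arrays per group). CCNG2 lies to the right of all other members at 1.61, TIGAR lies furthest left at -1.07, and most intervals include 0.

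Several features of the arrays differed in mean between the groups. On the log2 scale the 3' control probe set of ACTB exceeded its 5' probe set, a gap that widens as RNA degrades. The excess was 1.38 ± 0.26 in controls and 1.81 ± 0.16 in treated tumours (SD, n = 3 each, exact two-sided permutation p = 0.2). Control 3, at 1.66, lay above bevacizumab 3, at 1.64, so the groups overlapped. The same gap for GAPDH was -0.12 ± 0.02 in controls and -0.02 ± 0.03 in treated tumours, without overlap (exact two-sided permutation p = 0.1, which no split of 3 against 3 can go below). With the ACTB measure as a covariate no member passed (8 had an unadjusted p under 0.05 in limma) and 24 genes passed in all; CCNG2 then differed by 1.43 (adjusted p = 0.0547) and TIGAR by -1.18 (adjusted p = 0.0608). Of 7 mural cell markers ACTA2, KCNJ8 and RGS5 were lower, while PDGFRB (0.30), NOTCH3 (-0.51) and ABCC9 (-0.76) did not pass and MYH11 was under 4 on every array. The log2 of the summed level of the list was 13.05 to 13.39 on control arrays and 11.75 to 11.92 on treated ones. That sum follows ACTA2 (mean 12.76 in controls and 10.97 after treatment). Which cells gave these signals, and their part in the members' values, was not tested. Host cells in these tumours are mouse cells, while the probe sets are for human transcripts. Low or falling values of mural, immune or endothelial markers therefore do not show that such host cells were absent or lost. All 4 T and B cell markers measured and 5 of 6 macrophage markers lay under 4 on every array. Of 6 endothelial markers CDH5, CLDN5, KDR and VWF were under 4 throughout, and PECAM1 (mean 6.21 in controls and 6.39 after treatment) and TEK (5.88 and 5.85) were above it and did not pass. Of 8 glioma markers CD44, VIM, NES and EGFR were bright, with EGFR higher and NES lower after treatment, whereas GFAP, OLIG2 and S100B were under 4 throughout. SOX2 read 2.84, 3.58 and 2.82 in controls and 4.30, 3.76 and 3.61 after treatment, and its mean was too low to be tested.

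CCNG2 encodes cyclin G2, an atypical cyclin that accumulates in cells leaving the cycle and is known to be driven by FOXO factors more than by p53. Its log2 values were 9.05, 9.16 and 9.38 on control arrays 1, 2 and 3, and 10.78, 10.78 and 10.85 on bevacizumab arrays 1, 2 and 3. The 3 treated arrays lay close together and well above every control. The mean went from 9.19 ± 0.17 to 10.80 ± 0.04 (SD, n = 3 each), a log2 difference of 1.61 (SE 0.11, limma adjusted p = 0.00184), or 3.05-fold. By size of difference it was number 200 of the 10233 genes tested, counted from the largest rise. The call held whichever single array was dropped, with differences of 1.54 to 1.70 over those 6 fits. Averaged over all its probe sets, dim ones included, CCNG2 differed by 1.01 and still passed. Its close relative CCNG1, a direct p53 target, had 12.69, 12.81 and 12.85 in controls and 12.82, 12.96 and 12.79 after treatment, so the groups overlapped. The CCNG1 difference was 0.08 (95% interval -0.15 to 0.30). The CCNG2 difference exceeded that of CCNG1 by 1.53 on the log2 scale (exact two-sided permutation p = 0.1, the smallest that 3 arrays against 3 can give; 0.4 adjusted over 4 paralog pairs).

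TIGAR encodes a fructose-2,6-bisphosphatase that slows glycolysis and diverts glucose to the pentose phosphate pathway. Its control values were 9.47, 9.45 and 9.45, and its bevacizumab values were 8.47, 8.51 and 8.19. All 3 treated arrays were lower, and the controls differed among themselves by little. The mean fell from 9.46 ± 0.01 to 8.39 ± 0.18 (SD, n = 3 each), a log2 difference of -1.07 (SE 0.11, adjusted p = 0.00451), which is 2.10-fold lower. This call too was kept whichever array was dropped, with differences between -1.13 and -0.97. A single probe set represents TIGAR.

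The start regions of both genes are shown because CCNG2 and TIGAR were the members that moved most and did so in opposite directions. Each run covers 250 bases before to 50 bases after a transcription start in RefSeq (GRCh38.p14), for CCNG2 at chr4:77156957-77157256, plus strand, and for TIGAR at chr12:4320963-4321262, plus strand. Capitals mark ACGTG on either strand, the core bound by hypoxia-inducible factors. In CCNG2 the matches of the 2 strands overlap as the palindrome CACGTG, which is also the E-box core.
CCNG2: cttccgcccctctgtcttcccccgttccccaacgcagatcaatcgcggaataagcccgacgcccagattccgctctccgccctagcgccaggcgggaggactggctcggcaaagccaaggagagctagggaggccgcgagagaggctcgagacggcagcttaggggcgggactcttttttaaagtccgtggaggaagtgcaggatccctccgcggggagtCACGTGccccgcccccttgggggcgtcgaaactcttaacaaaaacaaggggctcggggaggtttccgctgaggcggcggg
TIGAR: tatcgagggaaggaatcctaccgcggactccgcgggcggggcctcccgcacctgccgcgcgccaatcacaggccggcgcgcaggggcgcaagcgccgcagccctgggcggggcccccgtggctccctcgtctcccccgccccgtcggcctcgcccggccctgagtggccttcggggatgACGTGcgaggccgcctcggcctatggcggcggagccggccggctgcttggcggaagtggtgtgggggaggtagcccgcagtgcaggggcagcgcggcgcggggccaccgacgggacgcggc
Among all 35116 RefSeq start regions of this length 21.4% hold ACGTG, and 12 of the 35 start regions of members do (34.3%), among them those of members that did not pass, such as BAX, XPC and MDM4. The FOXO core GTAAACA, on either strand, was in 2 member regions (GDF15 and PERP), or 5.71%, against 3.42% of all. These matches describe letters and are no evidence of binding. RefSeq start regions were matched for 27 of the 33 genes.

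Among the controllers of p53, PPM1D fell and the others did not pass. PPM1D encodes WIP1, a phosphatase that p53 induces and that switches the damage response off. Its values were 8.49, 8.84 and 8.56 in controls and 7.95, 8.03 and 7.42 after bevacizumab, with no overlap. The difference was -0.83 (SE 0.19, adjusted p = 0.0329), or 1.78-fold lower; averaged over both its probe sets it was -0.48 and did not pass. MDM2 was at 9.47, 9.28 and 9.50 in controls and 9.34, 9.25 and 9.58 in treated tumours. The 2 sets of values interleaved, and the difference of -0.02 had a 95% interval of -0.32 to 0.27. Of the 10 MDM2 probe sets 3 were bright enough to test and none of them passed. MDM4 differed by 0.18 (95% interval -0.40 to 0.76), and TP53BP1, a scaffold of double-strand break repair first found as a p53 partner, by -0.29 (95% interval -0.73 to 0.15).

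The arrest genes apart from CCNG2 did not pass, CDKN1A included. CDKN1A encodes p21, the inhibitor of cyclin-dependent kinases through which p53 halts the cycle. Its values were 9.78, 9.47 and 9.91 in controls and 8.88, 9.43 and 9.49 after bevacizumab. Bevacizumab array 1 was the lowest, and array 3 of that group exceeded control array 2, so the groups overlapped. The difference was -0.45 (SE 0.20, adjusted p = 0.165; 95% interval -0.94 to 0.04), whose upper end is near 0. GADD45A, a stress sensor that restrains CDK1, differed by -0.19 (95% interval -0.49 to 0.11). Its paralog GADD45B, which responds more to cytokine and NF-kB signals, differed by 0.45 (95% interval -0.09 to 1.00). The 2 differences were not shown to be unlike (exact two-sided permutation p = 0.2; 0.4 adjusted over the 4 pairs). The polo-like kinase genes PLK2 and PLK3 differed by 0.19 and 0.07, and SERTAD1, a CDK4 regulator, by -0.05. PLK3 read 5.89 on all 3 control arrays and on bevacizumab array 2; values repeated on at least 2 arrays occurred in 4 of the 32 members and in 12% of all genes tested.

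**Figure D2:**
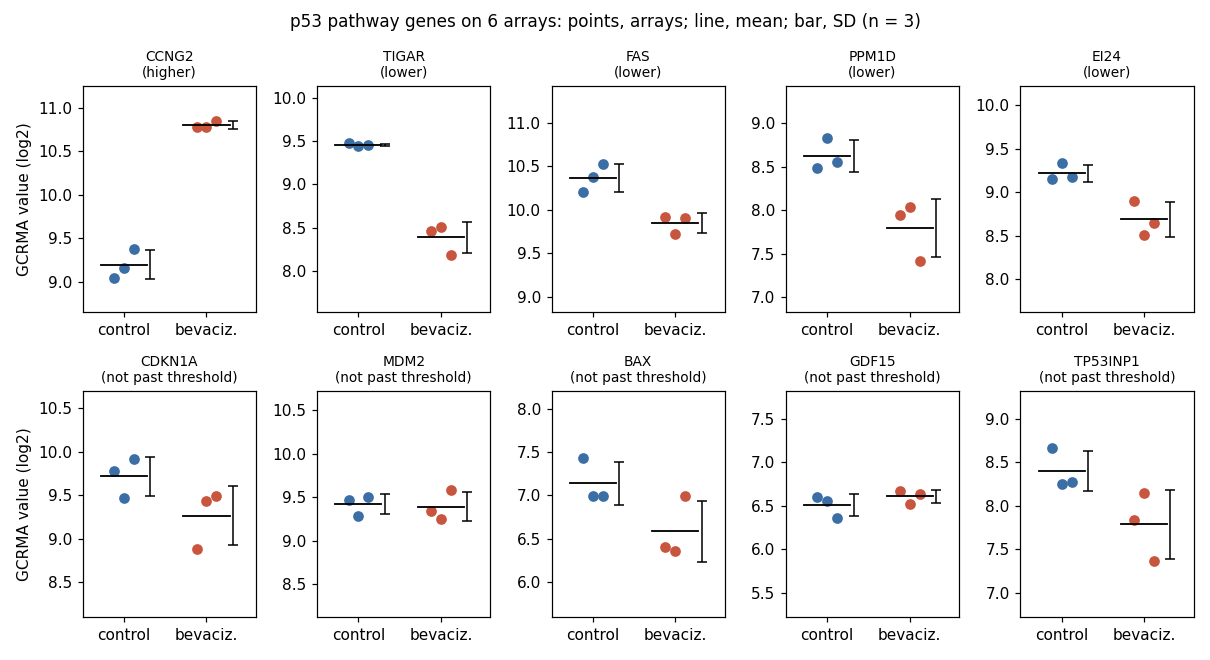
GCRMA log2 values (y axis, panels of equal span) of the 5 members past the threshold (top row) and of CDKN1A, MDM2, BAX, GDF15 and TP53INP1 (bottom row) on the 3 control and 3 bevacizumab arrays (x axis); points are arrays, lines are means and bars are SDs. In the top row the groups are apart, while in the bottom row those of CDKN1A, MDM2, BAX and GDF15 overlap.

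Of the 8 cell death genes tested, FAS and EI24 fell, with no rise: 25% fell against 9.97% of all genes, a difference of few genes in a group this small. FAS encodes the CD95 death receptor, which p53 raises at the cell surface. Its controls read 10.20, 10.37 and 10.53 and its treated arrays 9.92, 9.72 and 9.91, without overlap. The difference was -0.52 (SE 0.12, adjusted p = 0.0318), or 1.43-fold lower. Tested probe set by probe set, 4 of the 4 FAS probe sets above the filter passed, with differences from -0.77 to -0.52. EI24, an endoplasmic reticulum protein with roles in autophagy and cell death, read 9.15, 9.33 and 9.17 in controls and 8.90, 8.51 and 8.65 after treatment. Its difference was -0.53 (SE 0.13, adjusted p = 0.0364), and its second tested probe set, at -0.13, did not pass. The calls of FAS, EI24 and PPM1D were each lost when any 1 of the 3 controls or bevacizumab 2 was left out, those of FAS and EI24 also without bevacizumab 3, with adjusted p up to 0.104 for FAS, 0.175 for EI24 and 0.145 for PPM1D over all alternatives.

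The other death genes did not pass. BAX, which opens the outer mitochondrial membrane, read 7.429, 6.995 and 6.998 in controls and 6.406, 6.365 and 6.995 after bevacizumab, where array 3 equalled control array 2. Its difference was -0.55 (SE 0.21, adjusted p = 0.122, 95% interval -1.07 to -0.03). It passed only without bevacizumab 3 (adjusted p = 0.0468, with 0.0468 to 0.890 over its alternatives). A second tested BAX probe set differed by -0.89 (SE 0.26), with all treated arrays below the controls. That probe set did not pass either (limma adjusted p = 0.0725 over all probe sets). TP53INP1, a stress protein of autophagy and p53 phosphorylation, read 8.66, 8.25 and 8.27 in controls and 7.84, 8.15 and 7.37 in treated tumours, with a difference of -0.61 (SE 0.23, adjusted p = 0.109). Its groups did not overlap, but the treated arrays spread over a wider range than the controls. TNFRSF10B, the TRAIL receptor DR5, had the highest difference of the death genes, with 10.49, 10.65 and 10.67 in controls and 11.16, 10.80 and 11.09 after treatment. It differed by 0.41 (SE 0.12, adjusted p = 0.0681), in the opposite direction to FAS, and passed without bevacizumab 2 and with a trended, robust variance (adjusted p 0.0411 to 0.379 over its alternatives). The nuclease gene AEN differed by -0.17, the apoptosome gene APAF1 by 0.02 and PERP, a membrane protein of epithelial adhesion and death, by -0.09. PIDD1, which builds a caspase-2 platform, lay between 3.56 and 4.10 on its brighter probe set and was not tested.

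None of the 5 DNA repair genes tested passed in limma, or had an unadjusted p under 0.05, where 19.1% of all genes passed; a group this small does not set them apart. Their differences ran from -0.14 to 0.11 (median -0.02). DDB2, a sensor of ultraviolet damage, read 8.99, 8.86 and 8.86 in controls and 8.46, 8.95 and 8.86 after treatment, a difference of -0.14 (95% interval -0.50 to 0.21). XPC, which recognises distorted DNA, differed by 0.08, the ribonucleotide reductase subunit gene RRM2B by -0.12 and the helicase gene ASCC3 by -0.02. For POLH, the polymerase that copies past ultraviolet lesions, the probe set with the highest mean gave 0.11 with a wide 95% interval of -0.72 to 0.93. Another POLH probe set went from 5.94, 5.09 and 5.56 to 3.81, 4.11 and 3.77. Its difference was -1.63 (SE 0.23, limma adjusted p = 0.0116 over all probe sets). With values under 4 set to 4 it was -1.49, since 2 treated arrays lay under 4. The remaining tested POLH probe sets differed by -0.51 and -0.38 and did not pass, so the probe sets of this gene disagree.

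Start regions of DDB2, FAS and EI24 are shown because each holds the p53 decamer, a single arm of the p53 response element, yet DDB2 did not pass while FAS and EI24 fell. They are taken from RefSeq (GRCh38.p14) over the same span, for DDB2 at chr11:47214724-47215023, plus strand, for FAS at chr10:88991181-88991480, plus strand, and for EI24 at chr11:125569227-125569526, plus strand. Capitals mark the decamer, a pattern that matches alike on both strands. DDB2 carries 2 of them with 1 base between, the arrangement of a full p53 site.
DDB2: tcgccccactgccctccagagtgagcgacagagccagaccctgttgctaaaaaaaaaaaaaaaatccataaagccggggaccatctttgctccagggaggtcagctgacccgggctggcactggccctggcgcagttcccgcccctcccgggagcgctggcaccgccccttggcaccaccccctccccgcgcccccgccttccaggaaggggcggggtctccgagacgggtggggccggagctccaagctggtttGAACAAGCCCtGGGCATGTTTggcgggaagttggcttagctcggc
FAS: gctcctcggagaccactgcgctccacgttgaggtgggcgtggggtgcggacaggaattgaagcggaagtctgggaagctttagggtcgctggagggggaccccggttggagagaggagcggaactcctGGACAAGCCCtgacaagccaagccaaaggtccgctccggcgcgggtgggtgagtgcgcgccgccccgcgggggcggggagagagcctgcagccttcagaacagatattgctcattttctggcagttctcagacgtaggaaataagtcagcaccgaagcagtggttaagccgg
EI24: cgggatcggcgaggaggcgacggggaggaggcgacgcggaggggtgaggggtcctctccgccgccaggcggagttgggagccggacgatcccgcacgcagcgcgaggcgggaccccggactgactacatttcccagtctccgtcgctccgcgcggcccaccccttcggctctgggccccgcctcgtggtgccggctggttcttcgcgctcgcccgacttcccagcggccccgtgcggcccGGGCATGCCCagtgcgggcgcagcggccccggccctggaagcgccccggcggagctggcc
The decamer was in 6 of 35 member start regions (17.1%) and in 6.63% of all 35116. Those not shown belong to AEN, PLK2 and RPS27L, which did not pass. DDB2 and FAS have further start regions that lack the decamer. As with ACGTG, a match is no evidence of binding. No start region of CDKN1A or MDM2 holds an exact match. Sites with mismatches were not searched for, so the lack of a match does not show that a p53 site is absent. The best known p53 sites of CDKN1A lie further upstream than this window.

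Among genes of metabolism and survival TIGAR alone passed. TRIAP1, a small mitochondrial lipid carrier that limits apoptosis, read 10.37, 10.58 and 10.57 in controls and 10.19, 10.18 and 10.04 after treatment, with no overlap. Its difference of -0.37 (SE 0.10) had an adjusted p of 0.0501, just outside the threshold (0.0399 to 0.150 over its alternatives, of which 6 of 17 passed). RPS27L, a ribosomal protein paralog, differed by -0.25 (adjusted p = 0.1002) and TP53I3, a quinone reductase, by -0.32 (adjusted p = 0.2205), both with non-overlapping groups. RPS27L has a close copy, RPS27, and whether these probe sets also take up signal from the latter was not tested. GDF15, a secreted stress cytokine used as a marker of p53 activity, read 6.60, 6.56 and 6.36 in controls and 6.67, 6.53 and 6.64 after bevacizumab. The values interleaved, with a difference of 0.10 (95% interval -0.14 to 0.34), and the other 2 GDF15 probe sets were at the lowest value found in the data on every array. PHLDA3, which blocks AKT at the membrane, differed by 0.28 (95% interval -0.32 to 0.88). ZMAT3, an RNA-binding protein, differed by 0.13 on its brightest probe set, but its 5 tested probe sets ran from -0.42 to 0.70 and the lowest passed (adjusted p = 0.0341 over all probe sets).

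Probe sets of a gene were compared for the 16 members with more than 1 above the filter. They pointed in different directions in 5: MDM2, PERP, POLH, TP53BP1 and ZMAT3. Over the 61 member probe sets tested, 3 passed higher, which were all for CCNG2, and 9 lower; over all 18475 probe sets tested, 7.43% were higher and 7.96% lower. The fourth tested CCNG2 probe set differed by 0.22 and did not pass.

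**Figure D3:**
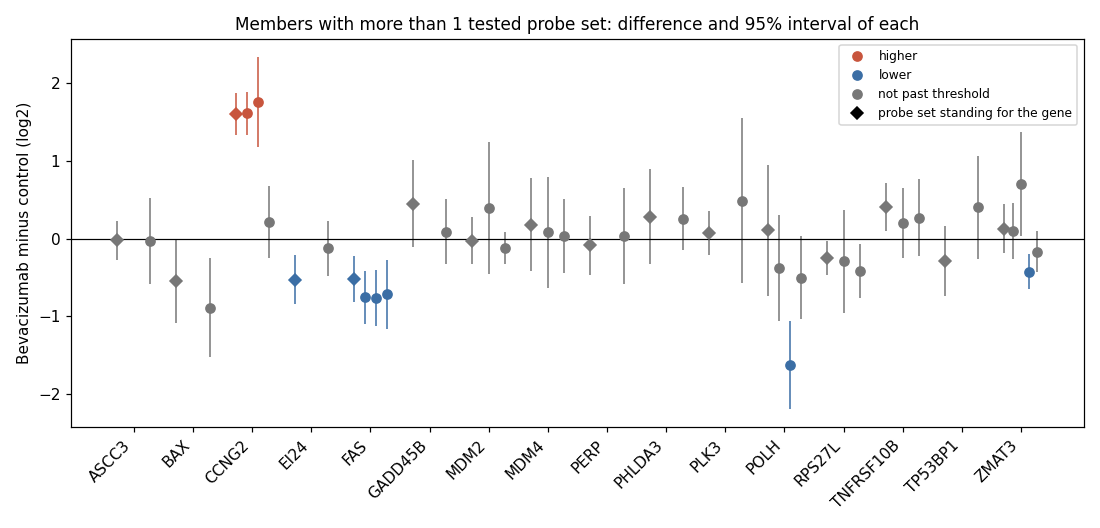
Difference between bevacizumab and control on the log2 scale (y axis) for every tested probe set of the 16 members with more than 1 (x axis), with 95% intervals from limma; diamonds mark the probe set that stands for the gene. For CCNG2 3 probe sets agree near 1.61 to 1.76 and for FAS 4 agree from -0.77 to -0.52, whereas those of ZMAT3 and POLH diverge.

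The groups did not overlap in 11 of the 32 members, 2 with all treated arrays higher (CCNG2 and TNFRSF10B) and 9 with all treated arrays lower. This is 34.4% of the members, against 41% of all genes tested. Treated arrays all lay above the controls in 6.25% of members against 19% of all genes, and all below in 28.1% against 22%. AEN, which did not pass, was among the 9, with controls from 8.46 to 8.49 and treated arrays from 8.27 to 8.35.

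Genes around the pathway were read from lists that leave out the members. Of 16 tested genes that encode p53 regulators and cofactors, 1 rose, 2 fell and 13 did not pass (median -0.10). The share called was 18.8%, against 19.1% of all genes tested. TP53BP2, which steers p53 toward death genes, rose by 1.01 (SE 0.14, adjusted p = 0.00844). The checkpoint kinase gene CHEK1 fell by 0.90 (SE 0.10, adjusted p = 0.00559) and COP1, a ubiquitin ligase that can target p53, by 0.52 (SE 0.08, adjusted p = 0.0109). The COP1 call was lost without _x_at and _s_at probe sets, which share sequence between transcripts (adjusted p = 0.151), and without control 2 (0.0511). RFWD3, another ubiquitin ligase, differed by -0.41 and did not pass. CDKN2A, whose locus is known to be deleted in U87, stayed under 4 on every array, and was not tested.

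Of 33 other reported p53 targets, 7 rose, 4 fell and 22 did not pass (median 0.13; 33.3% called against 19.1% of all genes). The 4 with the smallest p all rose: the calcium channel gene ORAI3 by 0.93 (SE 0.11), SUSD6 by 0.86 (SE 0.11), the adhesion gene NINJ1 by 0.77 (SE 0.10) and the autophagy gene DRAM1 by 1.43 (SE 0.19), with adjusted p of 0.00609, 0.00716, 0.00741 and 0.00758. The number that fell was 0 without control 1 or control 2, 1 without control 3 and 2 without bevacizumab 2. The apoptosis gene PMAIP1, named after its value was seen, differed by 0.15 (adjusted p = 0.604).

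Most cell cycle genes known to be lowered through p21 fell. Of 22 tested, 18 fell, 0 rose and 4 did not pass in limma (median -0.74; 81.8% fell against 9.97% of all genes). The kinase gene AURKB fell by 1.11, CCNB1, encoding cyclin B1, by 0.96, CHEK1 by 0.90 and the replicative helicase gene MCM5 by 0.87. Without control 1, 2 or 3 the number that fell was 7, 7 and 8, and without bevacizumab 2 it was 10. CHEK1 also stands in the list of regulators. CDKN1A, which encodes p21, differed by -0.45 and did not pass, as given above. Whether p21 had a part in these falls was not tested.

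Of 16 genes of the integrated stress response, the programme led by ATF4, 9 rose, 1 fell and 6 did not pass (median 0.67; 56.2% rose against 9.09% of all genes). CEBPB rose by 1.22 and VLDLR by 1.41, ATF3 by 4.19, and STC2 by 3.94 with values under 4 set to 4, since 2 of its controls lay under 4. GDF15 and TNFRSF10B, which ATF4 and its partner CHOP are also known to induce, did not pass, as given above. Of 16 immediate early genes 6 rose, 3 fell and 7 did not pass (median 0.27). That is 37.5% rising and 18.8% falling, against 9.09% and 9.97% of all genes tested. JUN was up by 0.66, IER3 by 2.67 and JUNB by 0.94, and SRF was down by 0.65. The early gene count of rises was 2, 2 and 3 without control 1, 2 or 3, and 3 without bevacizumab 2; that of falls was 1 without control 1 and 5 without bevacizumab 1.

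**Figure D4:**
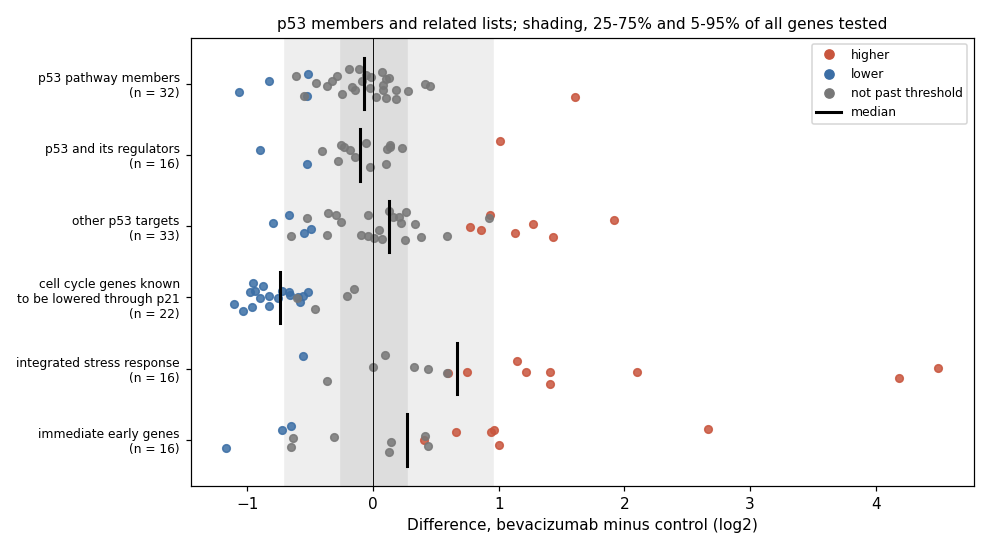
Differences between bevacizumab and control on the log2 scale (x axis) for the tested p53 pathway members and 5 related lists (rows); each point is a gene, the vertical spread within a row is only for display, and the black line is the median. Grey bands mark the 25th to 75th and the 5th to 95th percentiles of all 10233 genes tested; the median of the members lies at -0.07, near that of all genes, and that of the cell cycle genes at -0.74.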

How the data were processed

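Xenograft tumour RNA was measured on 6 Affymetrix human arrays, 3 per group. The deposited values are log2 expression values per probe set; per the submitters' processing notes the authors used GCOS 1.1.1.052 and GCRMA, which corrects background by probe sequence and normalizes between arrays. No header names the scale; a range of 2.23 to 15.99 and the usual output of GCRMA point to log2. Array medians were 2.49 to 2.51, and 33.3% to 34.3% of probe sets sat at the lowest value, where values have no order. Batches are unknown, no scanner files were used, and mouse RNA was not separated from human RNA. The number of arrays limits the precision.

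Of 54675 probe sets 41097 had 1 gene symbol, and 41043 symbols were set through the RefSeq gene table. The probe set with the highest mean stood for each of 19775 genes, and the 10233 with a mean of at least 4 were fitted with limma 3.58.1 (lmFit, eBayes) in R 4.3.3, without covariates. P-values are two-sided and adjusted by Benjamini-Hochberg over all genes tested; intervals are 95% and unadjusted. The procedure was tested on simulated data. All members are named. Values on every array are given for those past the threshold and a few fixed ones. They are also given for CCNG1, DDB2, TNFRSF10B, TRIAP1 and another POLH probe set, which were not fixed beforehand. Of each other list the 4 genes with the smallest p are named, with exceptions stated. Members and lists were chosen with earlier results of these data known. The groups share replicate numbers, but deviations of same-numbered arrays correlated at -0.05 to -0.01, so the numbers were not taken as pairs. Other filters, probe set rules, scalings, variance models, a covariate, a replicate block and fits without each array were tried.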

Additional observations from a re-analysis of the deposited data

How the results depend on the processing

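CCNG2 stayed higher and TIGAR lower in each of 17 alternatives, and both passed in 16; the exception was the ACTB 3' to 5' covariate. The members that rose numbered 2 with a trended, robust variance, 0 with that covariate, and 1 to 2 over fits without 1 array. The members that fell, 4 in the report, numbered 2 without a filter on dim genes: TIGAR, and AEN, which did not pass in the report. With probe sets ending in _x_at or _s_at left out, 2 fell, PPM1D and TIGAR. FAS and EI24 were not tested in that setting, having no other probe set above the filter. With the replicate number as a block 2 fell (CCNG2, PPM1D and TIGAR passed, FAS and EI24 did not). The block changed no other member's call. Members that fell numbered 0 with the covariate, and 1 to 4 over fits without 1 array. They numbered 6 with a trended, robust variance (RPS27L and TRIAP1 added), 6 with every probe set tested on its own (POLH and ZMAT3 added), and 5 with a filter at 6, values under 4 set to 4, quantile normalization or centred arrays (TRIAP1 added). The median difference of members was -0.13 with every probe set tested on its own, -0.13 with arrays centred on the median, -0.17 with the covariate, and -0.13 to -0.0402 over fits without 1 array. In the setting with every probe set tested on its own, the probe set with the smallest p stood for each gene, which favours calls. There POLH turned to -1.63 and ZMAT3 to -0.42, each on another probe set than in the report. Of members not past the threshold 14 changed sign in some alternative; no called member did.

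Genes past the threshold in all numbered 1950, but 598 without the filter, 1226 without _x_at and _s_at probe sets, 904 with the block, 24 with the covariate, and 558 to 2074 over fits without 1 array. The cell cycle genes that fell, 18 in the report, numbered 5, 9, 9 and 0 under the first 4 of these settings and 7 to 18 over fits without 1 array. Of the other p53 targets 3 rose without the filter and none with the covariate, and 5 to 8 rose over fits without 1 array; 0 fell without the filter, with the block or with the covariate. Stress response genes that rose numbered 3 without the filter and 0 with the covariate; early genes 1 and 0, with 3 on the mean of all probe sets and 2 without _x_at and _s_at probe sets. With the covariate no gene of the regulator, stress or early lists passed; 1 regulator fell with the block or without _x_at and _s_at probe sets. For these counts the cause was not tested. With 3 arrays a group, differences inside the intervals given cannot be resolved.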
